A study of Homo sapiens with 9 samples.

Results

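Keratins, vimentin and plectin build and anchor the intermediate filament network, and 8 of their genes are described here in MDA-MB-231 cells: the keratin genes KRT7, KRT8, KRT80 and KRT81 (type II) and KRT18 and KRT19 (type I), the vimentin gene VIM and the plectin gene PLEC. They were taken by gene name from the gene lists of all 9 RNA-seq libraries, and all 8 were listed in every library, among 4237 genes listed in all 9 and 27615 listed in any. The genes were selected on their FPKM values and differences between these treatments, so those values are a description, and no test is given for them. MDA-MB-231 is an established triple-negative breast cancer line. Its cells were treated with DMSO as the vehicle control, with rimonabant, an antagonist of the cannabinoid receptor CB1, or with TXX-1-10, a compound derived from rimonabant, and 3 libraries were made for each. All groups share the line and differ in the treatment alone as far as the labels say. At which dose and for how long the sequenced cells were treated is not given in the sources used here, so differences between the compounds are differences between these samples and not between matched doses. Nothing says that the 3 libraries of a group came from separate cultures, and every p below then measures only the spread between these libraries, which may be technical.

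Keratins assemble as pairs of a type I and a type II protein, so a filament needs partners from both families. KRT8 with KRT18 is the main pair of simple epithelia, with KRT7 and KRT19 as further simple-epithelial keratins, while KRT80 is an epithelial keratin and KRT81 belongs to the hair keratins. Vimentin forms filaments without a keratin partner, is typical of mesenchymal cells, and is abundant in breast cancer lines of mesenchymal type. Plectin is a cytolinker of the plakin family that ties keratin and vimentin filaments to hemidesmosomes, actin and microtubules.

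The total count behind the FPKM values (reads per kilobase of gene length, scaled to the library total) was 17078370 to 17245379 in the vehicle libraries, 17477838 to 18813662 under rimonabant and 18394759 to 19277808 under TXX-1-10. The lists used here run broadly, not strictly, from high to low counts and end at different points, after 4237 genes in rimonabant replicate 1 and after 9397 to 27615 in the others, so genes with few reads were read in some libraries only. Of the line's markers beside VIM, MSN, CD44 and CAV1 were well expressed in all 9 libraries, CAV1 at 135 to 145 FPKM in vehicle and 20.8 to 22.9 under TXX-1-10. Of those low or absent in such cells, ESR1, PGR and CDH1 were at or near 0 in the 4 libraries that listed them, FOXA1 and GATA3 were low, and ERBB2 (7.0 to 9.52 FPKM) and EPCAM (4.47 to 5.37 FPKM) were detected. Counts of mitochondrially encoded genes made up 6.26% to 6.52% of the recovered total in vehicle libraries, 6.06% to 6.86% under rimonabant and 3.06% to 3.51% under TXX-1-10. In rimonabant replicate 1 and TXX-1-10 replicate 3, short genes were higher and long genes lower than in the other replicates of the same treatment. Both libraries touch the values below, and the fold changes of the 8 genes against vehicle are also given without them.

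KRT7 and KRT80 were several times lower under both compounds. KRT7 (ENSG00000135480, GRCh38 chr12:52232520-52252186, plus strand) stood at 201.1, 202.2 and 208.2 FPKM in the vehicle libraries, at 56.6, 48.1 and 50.9 under rimonabant, and at 31.6, 33.3 and 34.9 with TXX-1-10. The 3 groups did not overlap, and the order vehicle, rimonabant, TXX-1-10 held for every library. The fitted log2 fold change was -1.97 (SE 0.067) for rimonabant and -2.62 (SE 0.069) for TXX-1-10, or 25.4% and 16.3% of the vehicle level. Between the compounds it was -0.64 (SE 0.066).

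KRT80 (ENSG00000167767, chr12:52168996-52192000, minus strand) had the lowest FPKM among the type II members, with 40.9, 43.7 and 41.1 FPKM in vehicle libraries. It was listed at 12.2, 12.7 and 11.1 FPKM under rimonabant and at 7.89, 8.31 and 7.53 with TXX-1-10. As for KRT7, the groups stood apart in the same order. The log2 fold change against vehicle was -1.80 (SE 0.063) for rimonabant and -2.40 (SE 0.065) for TXX-1-10, and that of TXX-1-10 against rimonabant was -0.60 (SE 0.065).

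KRT81 (ENSG00000205426, chr12:52285913-52291534, minus strand), the hair-type member, was abundant in these breast cancer cells, at 159.3, 171.0 and 166.4 FPKM in vehicle libraries. It was at 82.8, 68.5 and 68.7 FPKM under rimonabant and at 43.4, 37.1 and 51.8 with TXX-1-10. No group overlapped another, although the TXX-1-10 libraries spread widely (SD 7.38 FPKM around a mean of 44.1). The log2 fold change was -1.18 (SE 0.113) for rimonabant, -1.91 (SE 0.116) for TXX-1-10 and -0.73 (SE 0.114) between them.

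**Figure D1:**
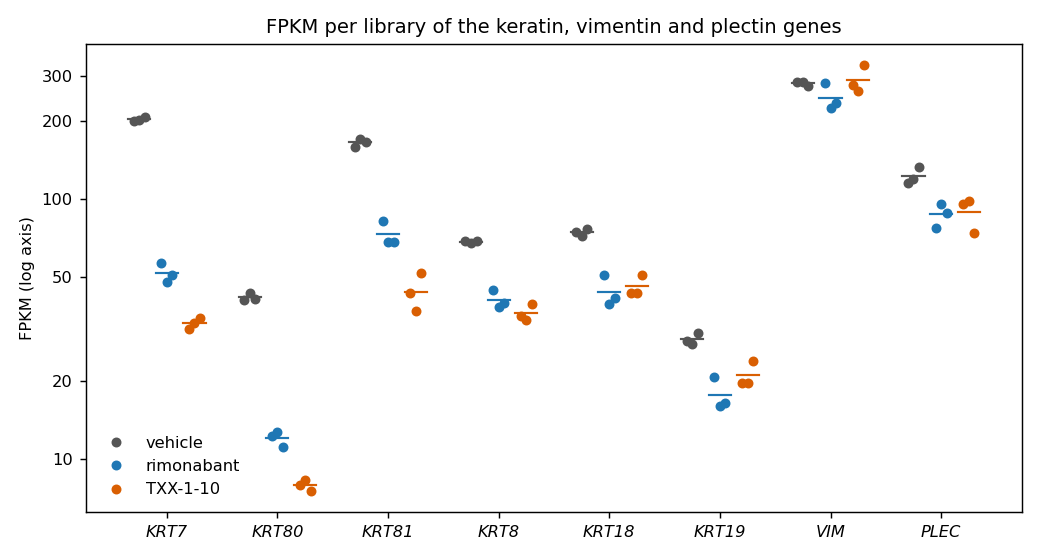
FPKM on a log axis in each of the 9 libraries for the 8 genes, with points for libraries and a bar for each group mean (n = 3). KRT7, KRT80 and KRT81 form 3 separate levels ordered vehicle, rimonabant, TXX-1-10, KRT8, KRT18, KRT19 and PLEC are lower under both compounds than in vehicle, and the VIM groups overlap.

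The main simple-epithelial pair was lower by less. KRT8 (ENSG00000170421, chr12:52897187-52949954, minus strand) read 68.8, 67.7 and 69.1 FPKM in vehicle libraries, 44.6, 38.6 and 39.7 under rimonabant, and 35.5, 34.1 and 39.4 with TXX-1-10. Every treated library was below every vehicle library, and the ranges of the 2 compounds overlapped. The log2 fold changes against vehicle were -0.74 (SE 0.069) and -0.92 (SE 0.07). Its partner KRT18 (ENSG00000111057, chr12:52948871-52952901, plus strand) read 75.1, 72.4 and 76.9 FPKM in vehicle libraries, 51.1, 39.5 and 41.7 under rimonabant, and 43.7, 43.6 and 51.2 with TXX-1-10. Here too the treated libraries lay below the vehicle libraries and overlapped each other. The log2 fold changes were -0.76 (SE 0.097) for rimonabant and -0.70 (SE 0.096) for TXX-1-10.

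KRT19 (ENSG00000171345, chr17:41523617-41528308, minus strand), a type I keratin, read 28.4, 27.7 and 30.6 FPKM in vehicle libraries, 20.6, 15.9 and 16.4 under rimonabant, and 19.6, 19.5 and 23.8 with TXX-1-10. The highest value of each compound came from rimonabant replicate 1 and TXX-1-10 replicate 3, and both stayed below the vehicle range. The log2 fold change was -0.71 (SE 0.109) for rimonabant and -0.46 (SE 0.108) for TXX-1-10, so that the difference between the compounds was 0.25 (SE 0.11), opposite in sign to that of KRT7, KRT80 and KRT81. It was 0.38 without rimonabant replicate 1, 0.15 without TXX-1-10 replicate 3 and 0.28 without both. With a correction for gene length it was 0.4, and KRT19 under TXX-1-10 against vehicle was then -0.32.

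VIM (ENSG00000026025, chr10:17228259-17237593, plus strand) was the member with the highest FPKM in every group. It read 282.1, 283.9 and 274.0 FPKM in vehicle libraries, 279.6, 224.3 and 235.4 under rimonabant, and 275.6, 261.3 and 328.6 with TXX-1-10. The groups overlapped, and the high value under each compound again came from rimonabant replicate 1 and TXX-1-10 replicate 3. The log2 fold change was -0.18 (SE 0.101) for rimonabant and 0.04 (SE 0.10) for TXX-1-10. The sign of the latter was not fixed: it was 0.14 with TMM or DESeq2 scaling, 0.11 with a correction for gene length and -0.06 without the 2 libraries. For rimonabant the value without them was -0.28.

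PLEC (ENSG00000178209, chr8:143915147-143976734, minus strand) was the longest of the genes, with a listed length of 16991 bases. It read 115.8, 120.0 and 132.9 FPKM in vehicle libraries, 77.6, 96.2 and 88.9 under rimonabant, and 95.6, 98.4 and 74.4 with TXX-1-10. The treated libraries all lay below the vehicle libraries. Rimonabant replicate 1 and TXX-1-10 replicate 3 were the lowest of their groups, the reverse of their place for VIM and KRT19. The log2 fold change was -0.49 (SE 0.116) for rimonabant and -0.46 (SE 0.116) for TXX-1-10. Without the 2 libraries it was -0.41 and -0.34, and with the correction for gene length -0.35 and -0.36. Between the compounds it was 0.03 (SE 0.115), and its sign turned with the libraries used, from -0.05 without rimonabant replicate 1 to 0.15 without TXX-1-10 replicate 3.

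A gene was called changed where its log2 fold change was 1 or more in either direction with an adjusted p under 0.05. On this rule KRT7, KRT80 and KRT81 were past both thresholds in each compound against vehicle, all lower, which is 3 of 8 genes. Of all 4236 genes tested, 1.13% were past both for rimonabant (0.614% lower) and 11.8% for TXX-1-10 (7.60% lower). Between the compounds 0 of 8 were past both by edgeR, as by limma and DESeq2, beside 5.93% of all genes tested (4.34% lower). The median log2 fold change of the 8 genes was -0.75, -0.81 and -0.07 in the 3 comparisons in that order, and that of all genes tested -0.02, -0.09 and -0.08. Groups did not overlap for 7, 7 and 3 of the 8 genes, beside 61.1%, 78.7% and 63.6% of all genes tested. As the genes were chosen with these contrasts known, nothing is read from their counts. The 2 comparisons with vehicle share the same 3 vehicle libraries. In bulk RNA, fewer cells that express a gene and less of its RNA per cell cannot be told apart.

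**Figure D2:**
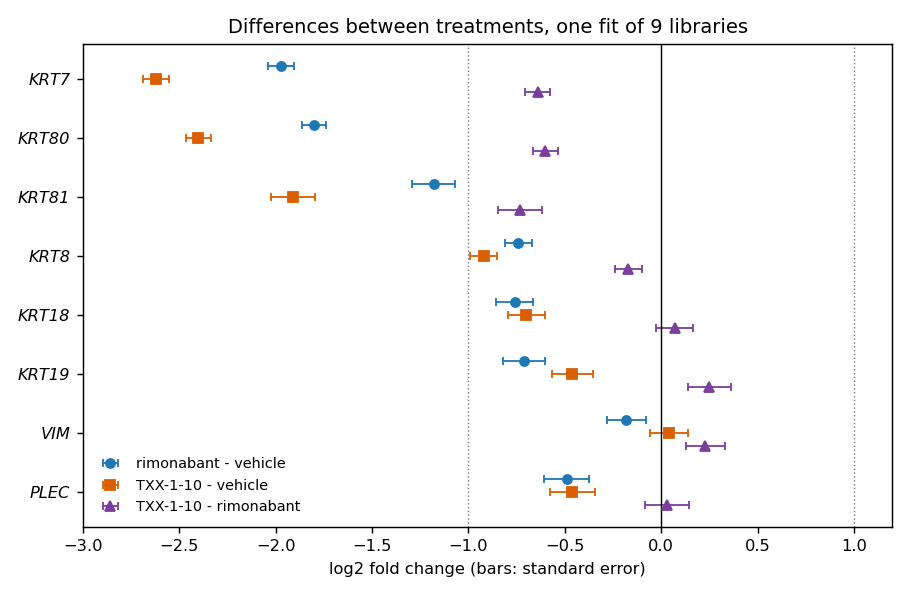
Log2 fold change (x axis) with its standard error for the 8 genes in the 3 comparisons, from the fit of 9 libraries; dotted lines mark 1 and -1. KRT7, KRT80 and KRT81 lie beyond -1 for both compounds, and between the compounds the points run from -0.73 for KRT81 to 0.25 for KRT19.

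The spread within treatments went with the length of the genes. Across 4236 genes, the log2 ratio of a library to its other replicates had a Spearman rho with listed length of -0.694 for rimonabant replicate 1 and -0.693 for TXX-1-10 replicate 3 (a description across genes, which are not independent replicates), and of 0.478 to 0.667 for the other treated libraries, each set against a pair that holds 1 of these 2. For the vehicle libraries it was -0.024 to 0.028. In these 2 libraries, genes over 10 kb had a median ratio of -0.19 and -0.185, and genes under 2 kb one of 0.26 and 0.28. PLEC was at -0.25 and -0.38. VIM was at 0.28 and 0.29 and KRT19 at 0.35 and 0.28, and KRT81, the shortest member, at 0.27 and 0.37. The type I keratins and VIM were displaced upward, and PLEC downward, in the same libraries. Listed length alone does not give these values. KRT8 (6881 bases) was at 0.19 and 0.18, where genes of similar length had medians of -0.032 and -0.024. VIM (5158 bases) stood above the medians of 0.045 and 0.042 for its length. KRT80 (4350 bases) was at 0.04 and -0.10, below the medians of 0.079 and 0.087 for its length. Without them the log2 fold changes under rimonabant and TXX-1-10 were -2.04 and -2.65 for KRT7, -1.82 and -2.37 for KRT80, and -1.27 and -2.04 for KRT81. They were -0.81 and -0.98 for KRT8, -0.88 and -0.78 for KRT18, and -0.84 and -0.56 for KRT19.

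**Figure D3:**
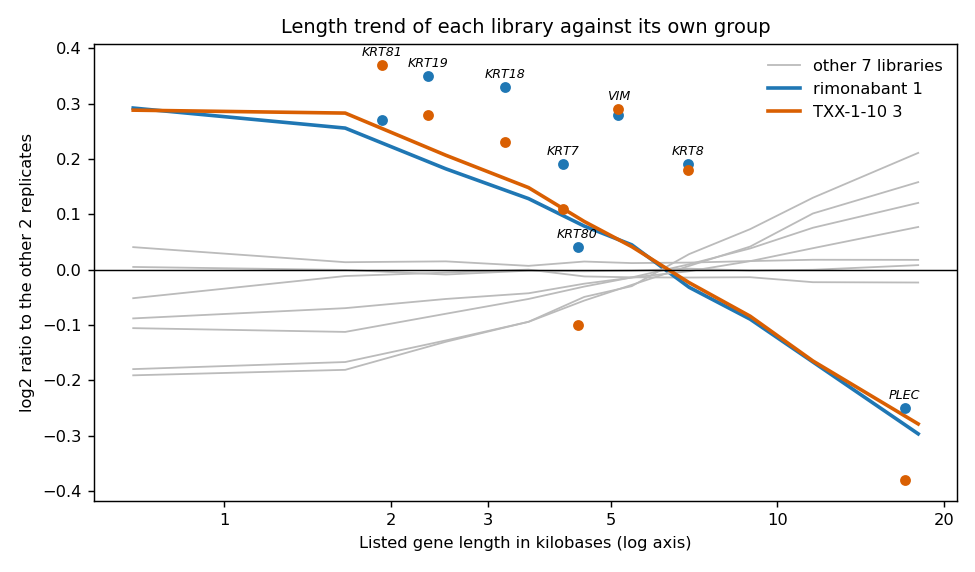
Median log2 ratio of each library to the other 2 replicates of its treatment (y axis) in bins of listed gene length in kilobases (log x axis), with points for the 8 genes in rimonabant replicate 1 and TXX-1-10 replicate 3. The lines of these 2 libraries run from 0.29 for the shortest genes to -0.30 and -0.28 for the longest, and PLEC lies at their low end, at -0.25 and -0.38.

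Summed over the members alone, the type II keratins were lowered more than the type I keratins. KRT7, KRT80 and KRT81 carried this, while KRT8 under rimonabant (-0.74) was lowered about as much as KRT18 (-0.76) and KRT19 (-0.71). Summed FPKM of KRT7, KRT8, KRT80 and KRT81 was 470.0, 484.7 and 484.9 in vehicle libraries, 196.2, 167.9 and 170.4 under rimonabant, and 118.4, 112.7 and 133.7 with TXX-1-10. That of KRT18 and KRT19 was 103.6, 100.1 and 107.5 in vehicle libraries, 71.7, 55.4 and 58.2 under rimonabant, and 63.3, 63.1 and 75.1 with TXX-1-10. The ratio of the sums was 4.63 ± 0.182 (SD, n = 3) in vehicle, 2.90 ± 0.147 under rimonabant and 1.81 ± 0.0493 under TXX-1-10, with no overlap between the groups. Leaving out KRT81 gave 3.03, 1.71 and 1.16, in the same order. These ratios come from the values that chose the genes and carry no test. They leave out KRT10, a type I keratin outside the members, at 25.5 FPKM in vehicle, 33.8 under rimonabant and 34.2 under TXX-1-10. Counting it would lower each ratio.

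Within the KRT8 and KRT18 pair the balance held under rimonabant and was lower under TXX-1-10. The KRT8 to KRT18 ratio of FPKM was 0.916 ± 0.018 in vehicle and 0.933 ± 0.0543 under rimonabant, with overlapping ranges, and 0.788 ± 0.0223 under TXX-1-10, below both. The KRT7 to KRT18 ratio was 2.73 ± 0.0569, 1.18 ± 0.0635 and 0.722 ± 0.041, so KRT7 went from above KRT18 to below it on this scale. KRT7 made up 35.0% ± 0.321 of the FPKM of the 6 keratins in vehicle, 21.7% ± 0.603 under rimonabant and 17.7% ± 1.12 under TXX-1-10. VIM over the sum of the 6 keratins was 0.480 ± 0.0157 in vehicle, 1.02 ± 0.0208 under rimonabant and 1.53 ± 0.0404 under TXX-1-10. VIM and the keratins other than KRT80 were all displaced upward in the 2 libraries with a length trend. Counts of the 6 keratins were 0.212% of the recovered library total in vehicle, 0.0871% under rimonabant and 0.0703% under TXX-1-10.

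**Figure D4:**
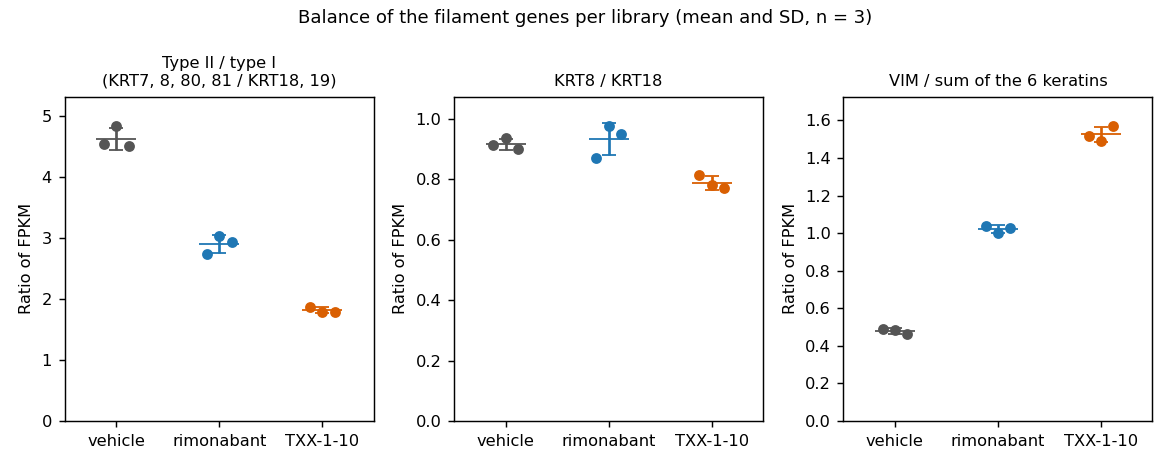
Ratios of FPKM in each library (points) with mean and SD (bars, n = 3), axes from 0: type II over type I keratins among the members, KRT8 over KRT18, and VIM over the sum of the 6 keratins. The type II to type I ratio steps from 4.63 in vehicle to 2.90 and 1.81, KRT8 over KRT18 stays between 0.77 and 0.976, and VIM over keratins goes from 0.48 to 1.02 and 1.53.

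By FPKM the order in vehicle cells was VIM, KRT7, KRT81, PLEC, KRT18, KRT8, KRT80 and KRT19, and no neighbours in that order overlapped. Under rimonabant it was VIM, PLEC, KRT81, KRT7, KRT18, KRT8, KRT19 and KRT80, where PLEC overlapped KRT81, and KRT18 overlapped both KRT7 and KRT8. Under TXX-1-10 it was VIM, PLEC, KRT18, KRT81, KRT8, KRT7, KRT19 and KRT80, where KRT18, KRT81 and KRT8 overlapped in turn, as did KRT8 and KRT7. The listed length of each gene equals the union of all its exons in GENCODE 29, which for KRT8 is 4.08 times, and for VIM 2.42 times, the length of the transcript with the longest coding sequence. Per kilobase of that transcript, KRT8 in vehicle cells was at 279.6 ± 3.02 on the same scale and came next after VIM (676.5 ± 12.8) and KRT7 (475.7 ± 9.0), ahead of KRT81 and KRT18, and the KRT8 to KRT18 ratio became 1.81 ± 0.0351. The fold changes of single genes do not depend on the length used. The type II to type I ratio on these lengths was 4.78, 3.13 and 2.14.

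A promoter sequence was read for KRT8 and VIM, the 2 of the 8 genes with a RefSeq promoter entry (GRCh38.p14), as a member that was lower under both compounds and the member whose groups overlapped. Each is the 250 bases before the annotated start, 5′ to 3′ on the strand of the gene, chr12:52926470-52926719 (minus strand) for KRT8 and chr10:17227991-17228240 (plus strand) for VIM, and capitals mark a GC box. The KRT8 start is that of its transcript with the longest coding sequence, 1 of 17 annotated transcripts, and windows before other starts of the gene were not read.
KRT8: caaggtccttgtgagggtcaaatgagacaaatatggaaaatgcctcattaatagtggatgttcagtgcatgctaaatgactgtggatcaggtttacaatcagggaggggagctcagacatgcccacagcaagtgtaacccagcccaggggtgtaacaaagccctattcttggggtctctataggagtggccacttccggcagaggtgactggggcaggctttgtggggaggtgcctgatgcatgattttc
VIM: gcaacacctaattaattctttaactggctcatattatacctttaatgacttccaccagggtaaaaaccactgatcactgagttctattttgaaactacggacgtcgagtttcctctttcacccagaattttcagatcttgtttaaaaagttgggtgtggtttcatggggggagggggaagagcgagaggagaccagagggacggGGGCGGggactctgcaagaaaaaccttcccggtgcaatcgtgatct
On both strands, 4 motifs were searched. GGGCGG is a GC box, to which SP1 binds, and TATAAA is the TATA motif. TGANTCA is a site of AP-1, and CACCTG an E-box that ZEB and SNAI repressors bind. VIM held 1 GGGCGG, which begins 46 bases before the RefSeq start (the gene start in the deposited files lies further downstream). This 1 window of KRT8 held none of the 4, which says nothing of its other starts. Of all 35116 promoter windows of this length, 42.6% held the GC box, 10.7% the TATA box, 6.57% the AP-1 site and 17.5% the E-box. The matches describe these letters only.

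KRT80, KRT7 and KRT81 lie side by side in the type II keratin cluster on chromosome 12, within 123 kb, and KRT8 lies 606 kb further on. KRT18, a type I gene, lies next to KRT8 there, and they overlap by 1084 bases on opposite strands. Whether counting used strand is not given in the sources used here, so reads in overlaps cannot be assigned with certainty. KRT86, a hair keratin close in sequence to KRT81, overlaps KRT7 by 2887 bases and holds KRT81 within its span. It had 206 and 202 counts in the 2 vehicle libraries that list it, 54 and 66 with rimonabant, and 49, 38 and 70 with TXX-1-10, or 2.17% to 3.93% of the KRT81 count. KRT7-AS, an antisense RNA inside KRT7, had 155 and 196 counts in vehicle, 40 and 50 with rimonabant and 41, 41 and 40 with TXX-1-10. Both loci were thus low where KRT7 and KRT81 were low. KRT87P, a pseudogene that overlaps the end of KRT7, had 69 and 69 counts in vehicle, 51 and 21 with rimonabant and 56 and 58 with TXX-1-10, in the 6 libraries that list it. Whether the reads of these loci are their own was not tested. VIM-AS1, which overlaps the start of VIM, had 97 to 131 counts in all 7 libraries that list it.

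Of 19 protein-coding keratin genes listed in any library, the 6 members, KRT10 and KRT86 were the 8 that reached 100 counts, and 9 never passed 10 counts. KRT5 and KRT14, the basal epithelial pair, were not among the genes listed. KRT34, a hair type I keratin chosen for mention after its values were seen, had 27 and 23 counts in vehicle libraries and 61 to 78 under the compounds. KRT8P12 on chromosome 3 was the only 1 of 25 listed pseudogenes of KRT8, KRT18 and KRT19 with over 100 counts. It had 103 and 101 counts in vehicle, 108 and 111 with rimonabant, and 149, 158 and 140 with TXX-1-10. That is 1.23% to 3.67% of the KRT8 count, and how many reads the copies share was not tested.

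Genes that work with these filaments were read from 9 lists made from their known functions, 125 genes in all. Of these, 32 could be tested, 21 in the fit of 9 libraries and 11 in a fit of the 8 libraries other than rimonabant replicate 1, where 1.49% of 9369 genes were past both thresholds for rimonabant, 12.7% for TXX-1-10 and 6.41% between the compounds. Under rimonabant, 0 of the 32 rose and 3 fell; under TXX-1-10, 1 rose and 9 fell; and against rimonabant, TXX-1-10 had 2 higher and 3 lower. Their median log2 fold changes were -0.22, -0.32 and -0.13. Adjusted p-values below are from edgeR over all genes of the fit.

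The hemidesmosome, which plectin ties to keratin filaments, had 5 tested genes, of which 3 changed in at least 1 comparison. Integrin beta 4 (ITGB4), to which plectin binds, read 3.56, 3.45 and 4.23 FPKM in vehicle libraries, 1.53 and 1.64 in the rimonabant libraries that list it, and 1.67, 1.83 and 1.47 with TXX-1-10. It fell under rimonabant (-1.24, adjusted p = 1.24e-05) and under TXX-1-10 (-1.18, adjusted p = 6.78e-07), calls that limma on log2(FPKM + 1) did not make (-0.87 and -0.84). The compounds were not told apart (0.06, 95% interval -0.19 to 0.32, adjusted p = 0.688). Integrin alpha 6 (ITGA6), its partner in the receptor, fell under TXX-1-10, from 22.7 ± 0.639 to 10.4 ± 0.348 FPKM (-1.13, adjusted p = 2.85e-08), and was -0.50 under rimonabant. The difference of the 2 compounds was -0.63 (adjusted p = 4.11e-06).

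Laminin chains, part of the ligand of that integrin, were on the same list. LAMA3 fell under TXX-1-10 (-1.10, adjusted p = 1.44e-05), a call that was lost without TXX-1-10 replicate 3 (-0.91) and with limma on log2(FPKM + 1) (-0.83). LAMB3 was -0.37 under rimonabant and -0.00 under TXX-1-10, short of the fold threshold. CD151, the tetraspanin of the complex, was -0.16 and -0.22.

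Of the plakins beside plectin, desmoplakin (DSP), which ties keratins to desmosomes, rose under TXX-1-10 from 3.59 ± 0.136 to 8.34 ± 1.2 FPKM (1.22, adjusted p = 1.87e-07), opposite in direction to the keratins it binds. Under rimonabant it was 0.35. The long plakins DST and MACF1 were -0.62 and -0.33 under rimonabant and -0.74 and -0.45 with TXX-1-10, and none of these passed both thresholds. In both genes the lowest libraries were rimonabant replicate 1 and TXX-1-10 replicate 3, as for PLEC. Without these libraries DST was -0.38 and -0.52 and MACF1 -0.14 and -0.28, and MACF1 under rimonabant was -0.51 without replicate 2 and -0.03 with the length correction. EVPL, envoplakin, was -0.23 and -0.53. Among desmosome proteins, 1 of 5 tested passed both thresholds: plakophilin 3 (PKP3) fell under TXX-1-10 (-1.10, adjusted p = 4.93e-06), which was lost without TXX-1-10 replicate 2 (-0.98) and with limma on log2(FPKM + 1) (-0.88). PKP2 was -0.75 and -0.97, DSG2 -0.18 and -0.06, PKP4 -0.22 and -0.31, and PERP 0.44 and 0.30.

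Other filament genes gave few values. KRT10, the only keratin outside the members that could be tested, was 25.5 ± 1.76 FPKM in vehicle, 33.8 ± 2.89 under rimonabant and 34.2 ± 5.08 under TXX-1-10, with log2 fold changes of 0.41 and 0.42 that did not reach the fold threshold (adjusted p = 0.010 and 0.00458). Synemin (SYNM), which copolymerises with vimentin, was -0.32 and -0.60. Nestin (NES) was listed in 7 libraries with 82 to 287 counts and was not tested.

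**Figure D5:**
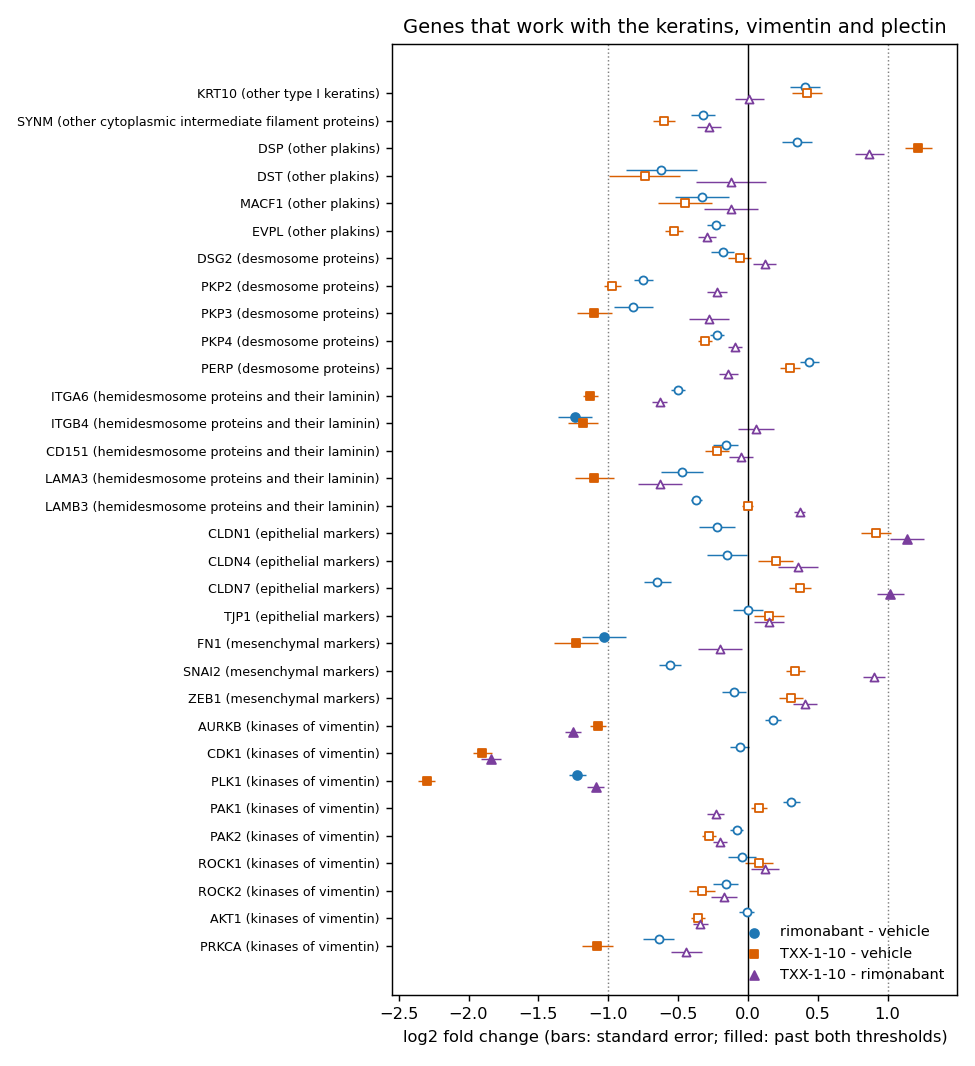
Log2 fold change (x axis) with its standard error for the 32 tested genes of 9 lists in the 3 comparisons, list names in brackets; filled symbols are past both thresholds. DSP lies right of 1 under TXX-1-10, and PLK1, CDK1, FN1, ITGA6, ITGB4, LAMA3, PKP3, AURKB and PRKCA lie left of -1.

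Epithelial and mesenchymal markers had few tested members, 4 of 18 and 3 of 14. CDH1 (E-cadherin) had 0 counts in each of the 4 libraries that list it, which allows up to 3 counts, or 0.162 to 0.176 CPM in rimonabant replicate 3 and vehicle replicate 1, counting error only. CDH2 (N-cadherin) had 2 to 7 counts in 5 libraries. Claudins CLDN1 and CLDN7, tight junction proteins, were higher under TXX-1-10 than under rimonabant by 1.14 (adjusted p = 7.06e-06) and 1.02 (adjusted p = 1.81e-06). Against vehicle, neither passed both thresholds: CLDN7 was -0.65 under rimonabant and 0.37 under TXX-1-10, and CLDN1 was -0.22 and 0.92. CLDN1 passed both under TXX-1-10 without vehicle replicate 2 (1.0), and under rimonabant it ran from -0.38 without rimonabant replicate 2 to -0.08 without replicate 3. CLDN4, also a claudin, was -0.15 and 0.20, and TJP1, a tight junction scaffold, 0.00 and 0.15. The CLDN7 call was lost without rimonabant replicate 2, without TXX-1-10 replicate 3, or with totals without mitochondrially encoded counts (0.98 each). With limma on log2(FPKM + 1) the calls of CLDN1 (0.92) and CLDN7 (0.86) between the compounds were both lost. These 2 genes come from the fit of 8 libraries, with 2 rimonabant libraries. Of the mesenchymal markers, fibronectin (FN1) fell from 62.7 ± 0.895 FPKM to 30.7 ± 6.31 under rimonabant (-1.03, adjusted p = 0.000538) and 26.8 ± 4.98 under TXX-1-10 (-1.23, adjusted p = 5.35e-05). The rimonabant call was lost without rimonabant replicate 1 (-0.88) and with the length correction (-0.9). The transcription factors SNAI2 and ZEB1, repressors of epithelial genes, were -0.56 and -0.10 under rimonabant and 0.34 and 0.31 with TXX-1-10, short of the fold threshold, with differences between the compounds of 0.90 (adjusted p = 1.17e-06) and 0.41 (adjusted p = 0.00176).

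Vimentin's level overlapped between groups while several kinases that phosphorylate it changed. The mitotic kinases PLK1, CDK1 and AURKB, which act on vimentin filaments in dividing cells, fell under TXX-1-10, with log2 fold changes of -2.3, -1.90 and -1.07 (adjusted p = 6.62e-10, 5.51e-09 and 6.6e-08). PLK1 read 26.0, 25.2 and 27.4 FPKM in vehicle libraries, 12.1, 10.8 and 10.9 with rimonabant, and 5.32, 5.39 and 5.23 under TXX-1-10, and it fell under rimonabant too (-1.22, adjusted p = 4.15e-07). CDK1 and AURKB were -0.06 and 0.18 under rimonabant, and between the compounds, TXX-1-10 minus rimonabant, -1.84 (adjusted p = 1.7e-08) and -1.25 (adjusted p = 4.83e-08). Protein kinase C alpha (PRKCA) fell under TXX-1-10 (-1.08, adjusted p = 8.89e-06), a call lost without TXX-1-10 replicate 3 (-0.97). With TMM scaling AURKB (-0.97) and PRKCA (-0.98) against vehicle no longer reached the fold threshold, nor did PLK1 between the compounds. The other 5 kinases, PAK1, PAK2, ROCK1, ROCK2 and AKT1, did not pass both thresholds in any comparison, with log2 fold changes from -0.36 to 0.31 against vehicle.

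Across the 9 libraries, log2(FPKM + 0.1) of the 15 pairs of keratins had a Pearson r from 0.72 upward, of the 6 pairs with VIM 0.07 to 0.67, and of the 6 pairs with PLEC 0.59 to 0.83. These values describe 9 libraries that share 3 treatments and, in 2 libraries, the length trend, and have no test. Among 4228 other genes, the 2 most like KRT7 were UGCG (r = 0.998), a glycosphingolipid synthase, and TGM2 (r = 0.996), transglutaminase 2. For KRT80 they were TGM2 (0.997) and GPRC5A (0.996). CNN2 (0.998) and CKB (0.995) stood nearest to KRT81, HNRNPC (0.994) and SNHG3 (0.991) to KRT8, HPCAL1 (0.991) and NNMT (0.989) to KRT18, and EEF1A2 (0.987) and SCO1 (0.978) to KRT19. VIM was most like RPL5 (0.989) and RPL3 (0.988), both ribosomal protein genes, and PLEC most like PTPRF (0.986) and SRGAP1 (0.984). Likeness of pattern is not likeness of size: UGCG was -0.59 and -0.81 where KRT7 was -1.97 and -2.62. Many genes came close, with 428 at r over 0.9 for KRT7 and 30 for VIM.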

How the data were processed

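Oligo(dT)-selected RNA of MDA-MB-231 cells was sequenced from 9 libraries, 3 per treatment. The submitters' processing notes name HISAT2 2.0.5 and featureCounts 1.5.0-p3. The authors deposited an unnormalized count for each gene and library. The deposited FPKM is the count divided by listed gene length and a library total, and this divisor was computed back from the other values. Of 27615 genes listed, 27590 have the coordinates of GENCODE 29 (GRCh38). A gene missing from a list was not taken as 0.

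Counts of 4236 genes, those in all 9 lists whose mean FPKM reached 1, were fitted together in edgeR 4.0.16 (quasi-likelihood, library size the recovered total, Benjamini-Hochberg adjustment). Genes missing from rimonabant replicate 1 alone came from the same fit of 8 libraries and 9369 genes. Standard errors, derived from the F statistic, and the normal intervals from them are approximate. The fits were run on simulated counts that held no length trend, a check of the code that does not cover that trend. The members, the lists of related genes and the tests were chosen with earlier results of these data known.

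Named are the 8 members, list genes past both thresholds in a comparison, a fixed set (CDH1, CDH2, SNAI2, ZEB1, ITGB4, ITGA6, DSP, DST, MACF1, KRT5, KRT14, KRT86, NES), the 2 genes most like each member, and overlapping genes and pseudogenes; other tested list genes, outside this rule, are given as values, and a further list gene is not reported here. Alternatives were TMM, DESeq2 1.42.0, limma 3.58.1 on log2(FPKM + 1) and log2(FPKM + 0.1), other FPKM filters, libraries left out, 2-group fits, the replicate number as a block and a length correction (lowess, span 0.3). Library totals without mitochondrially encoded counts, and transcript lengths, were added after the data were seen. Promoter sequences are from RefSeq.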

Additional observations from a re-analysis of the deposited data

How the results depend on the processing

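KRT7, KRT80 and KRT81 were the members past both thresholds against vehicle under all 22 alternatives, with 0 between the compounds. Of 528 fold changes of members under alternatives, 501 moved by less than the SD between replicates and 27 by more, and none of a called member changed sign. Many of these could hardly move by construction, as where the library left out belongs to the group not compared. The count is therefore no measure of how firm the values are. The fit of 8 libraries, which tests more genes, called 140, 1187 and 601 of all genes for rimonabant, TXX-1-10 and TXX-1-10 against rimonabant, in place of 48, 500 and 251. With limma on log2(FPKM + 1), 2 in place of 5 companion genes were past both thresholds between the compounds, and 2 in place of 3 and 7 in place of 10 for rimonabant and TXX-1-10 against vehicle; that pseudocount shrinks low genes. Leaving out 1 library gave 2 to 3, 8 to 11 and 4 to 5 companion genes in the 3 comparisons. Between the compounds, leaving out 1 library turned the sign of 3 uncalled values of named companion genes: DST (-0.36 to 0.12), MACF1 (-0.31 to 0.06) and ITGB4 (-0.01 to 0.14). Among the members, KRT18 (-0.01 to 0.18) and PLEC (-0.05 to 0.15) turned sign there too. DESeq2 size factors moved the median of all genes for TXX-1-10 against vehicle from -0.095 to 0.006. The type II to type I ratio was 3.03, 1.71 and 1.16 without KRT81, and 3.13 under rimonabant and 2.14 under TXX-1-10 on transcript lengths. By Spearman rho only 1 of the 16 genes most like a member stayed in place, and with a pseudocount of 1 on the log scale 15 did; the cause was not tested.

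Deviations of same-numbered libraries correlated at -0.07 to 0.04 between vehicle and either compound, and at -0.79, 0.83 and -0.61 between the compounds. In the treated libraries these deviations hold the length trend, so the values cannot show whether replicate numbers pair the samples. With the replicate block, 48, 501 and 250 genes were past both thresholds, and 3, 3 and 0 members. Lists that end early leave genes with few reads untested, and the treatments' doses, the strand setting and the origin of the replicates are not known here.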

Other observations

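Genes around the lowered type II keratins were read after the values of the members had been seen. Within 1 Mb of KRT7 on chromosome 12, 17 genes were tested, 5 of them members. Of the other 12, 0 were past both thresholds by edgeR in any comparison; on adjusted p alone, 4 were higher and 4 lower for rimonabant, and 9 higher and 2 lower for TXX-1-10, where 48.9% and 74.4% of all genes tested passed on that rule. Their median log2 fold changes were 0.08 and 0.36. Nearest to KRT80, ATG101, an autophagy gene, was 0.14 and 0.70, and ACVR1B, an activin receptor gene, was 0.11 and 0.74. On the side of KRT18, EIF4B, a translation initiation factor gene and the nearest tested, was -0.18 and 0.23, SPRYD3 0.27 and 0.35, ZNF740 0.22 and 0.39, IGFBP6 -0.41 and -0.10, and MFSD5 0.23 and 0.73. Also there, TNS2, which encodes a focal adhesion protein, was -0.81 (adjusted p = 2.87e-05) and -0.86 (adjusted p = 3.19e-06), and RARG, a retinoic acid receptor gene, was -0.83 (adjusted p = 3.06e-05) and -0.44 (adjusted p = 0.000279). These are values of single genes, and no link between position and level was tested.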
